A study of Homo sapiens with 10 samples.

Results

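The BCL2 family comprises the proteins that decide, at the outer mitochondrial membrane, whether a stressed cell enters apoptosis. Its 10 members examined here were fixed by name as the protein-coding genes with the symbols BCL2, BCL2L1, MCL1, BCL2A1, BCL2L11, BBC3, PMAIP1, BID, BAX and BAK1, and all 10 were found among the 19975 protein-coding genes and 60603 genes of the series. Their mRNA was measured by RNA-seq in NB4, an established line of acute promyelocytic leukemia cells. In the knockdown experiment, cells carried the empty pLKO.1 puro lentiviral vector (EV) or the same vector with the hairpin shA1 or shB2 against GSE1, and were collected 48 h after transduction. In the LSD1 inhibition experiment, cells received DMSO or 2 µM of the LSD1 inhibitor MC2580 for 24 h. Each of the 5 groups had 2 libraries, which gives 6 libraries in the knockdown experiment and 4 in the LSD1 inhibition experiment. Hairpins share the vector and the transduction with EV, and all groups are cultures of a single cell line.

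The value used for each gene is the base mean deposited by the authors, which is the mean of its size-factor-normalised read count across all libraries of an experiment, treated and control together. It carries no SD and no value per library or per group. A base mean therefore gives no difference between EV and a hairpin, or between DMSO and MC2580, and no depth of single libraries. The authors' own comparisons of these groups, which the same tables hold, were not used here. The base means summed to 40543130 in the knockdown experiment and to 41201112 in the LSD1 inhibition experiment. GSE1, the gene targeted by the hairpins, had a base mean of 2963 in the former and 4441 in the latter, and KDM1A, which encodes LSD1, had 7648 and 6285. A mean over EV and hairpin libraries cannot check the knockdown.

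In the intrinsic pathway of apoptosis, the effectors BAX and BAK1 assemble into pores in the outer mitochondrial membrane, and cytochrome c leaves through them to activate caspases. BCL2, BCL2L1 (BCL-XL), MCL1 and BCL2A1 (A1) bind and restrain the effectors. The BH3-only proteins BCL2L11 (BIM), BBC3 (PUMA), PMAIP1 (NOXA) and BID sense stress and either block the anti-apoptotic proteins or engage the effectors directly. They do so through the BH3 domain, a short helix with a conserved glycine or alanine followed by an aspartate. Myeloid cells are known to rely on MCL1 and, in acute leukemia, often on BCL2.

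The sequences of the BH3 core are shown for the 9 of the 10 members, genes of unequal length and structure, in which the form below was found. In the coding sequence of the MANE Select transcript, the reference isoform of each gene, stretches of 24 bases were searched that encode a leucine, any 2 residues, a hydrophobic residue, a glycine, alanine or serine, an aspartate, any residue and a hydrophobic residue. The codons of the small residue and of the aspartate are in capitals, each sequence is given 5′ to 3′ on the coding strand, and positions are those of GRCh38 (hg38).
BCL2 (chr18:63318355-63318378, minus strand, exon 2): ctccgccaggccGGCGACgacttc
BCL2L1 (chr20:31721928-31721951, minus strand, exon 2): ctgagggaggcaGGCGACgagttt
MCL1 (chr1:150578871-150578894, minus strand, exon 1): ttacgacgggttGGGGATggcgtg
BCL2L11 (chr2:111150103-111150126, plus strand, exon 3): ttgcggcgtattGGAGACgagttt
BBC3 (chr19:47226585-47226608, minus strand, exon 3): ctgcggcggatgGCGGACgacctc
PMAIP1 (chr18:59902673-59902696, plus strand, exon 2): ctcaggagatttGGAGACaaactg
BID (chr22:17739421-17739444, minus strand, exon 4): ctcgcccaggtcGGGGACagcatg
BAX (chr19:48955787-48955810, plus strand, exon 3): ctcaagcgcatcGGGGACgaactg
BAK1 (chr6:33575393-33575416, minus strand, exon 4): ctcgccatcatcGGGGACgacatc

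Each of these 9 genes held 1 match, and every match lay within a single exon. BBC3 was the only 1 of the 9 with an alanine codon, GCG, at the position where the others have a glycine codon. BCL2A1 had no match, which says only that its coding sequence holds no stretch of this form. Of 19061 MANE Select coding sequences in the genome, 5.49% held a match. The pattern was written from knowledge of these proteins, so its presence in the members is a description.

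The members lay on 8 chromosomes. BCL2 and PMAIP1 are both on chromosome 18, 3.22 megabases apart, and BBC3 and BAX are both on chromosome 19, 1.72 megabases apart. Their MANE Select transcripts ranged from 780 bases for BCL2A1 to 6881 bases for BCL2. The 3′ UTR makes up 76.7% of the BCL2 transcript, 82.6% of that of BCL2L11 and 81.7% of that of PMAIP1, against 20.4% for BAX and 22.4% for BCL2A1. Levels were therefore compared between genes per kilobase, after division of the base mean by the length of all annotated exons of the gene merged together. Shares without this division are given beside the shares by role and in the section on processing.

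All 10 members were detected in both experiments, with base means from 60.4 to 7913, and BAX, MCL1 and BID stood highest per kilobase. The level per kilobase exceeded that of the median protein-coding gene for 10 members in the knockdown experiment and for 9 in the LSD1 inhibition experiment, where BCL2A1 fell just under it. This median, over the protein-coding genes that had any reads, was 75.2 per kilobase in the former and 71.9 in the latter. When protein-coding genes whose base mean was under 50 were left out of the median, 6 and 5 members exceeded it. In bulk RNA, a level set by fewer expressing cells and one set by less RNA per cell cannot be told apart. The median member stood at 415 per kilobase in the knockdown experiment and at 260 in the LSD1 inhibition experiment. The highest member exceeded the lowest by 12.4 times in the knockdown experiment and by 25.8 times in the LSD1 inhibition experiment.

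**Figure D1:**
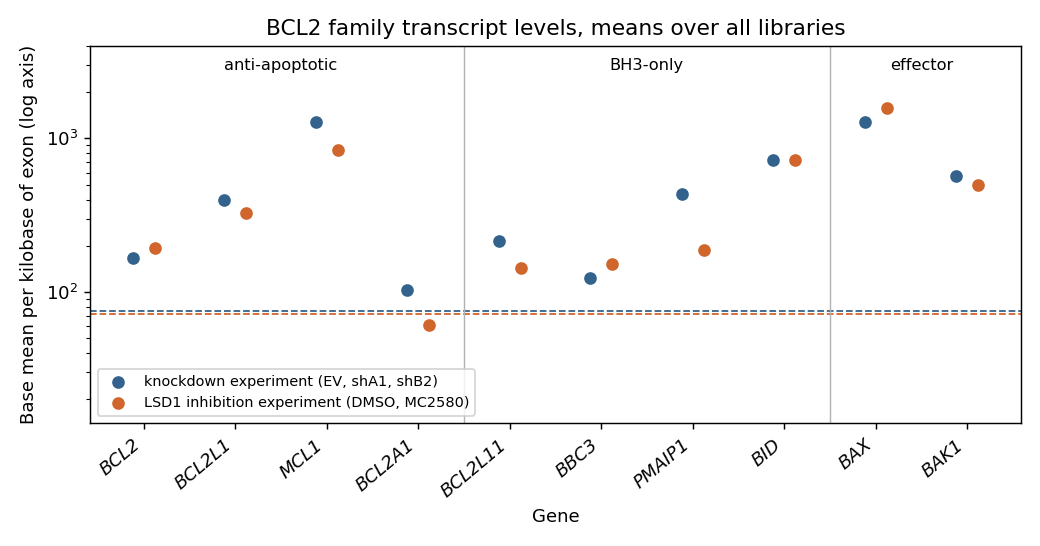
Base mean per kilobase of exon (log axis) of the 10 members, grouped by role; each point is the authors' mean over all libraries of an experiment, divided by exon length, and has no error bar. Dashed lines mark the median protein-coding gene, at 75.2 in the knockdown and 71.9 in the LSD1 inhibition experiment, and only BCL2A1 in the latter, at 60.7, lies under its line.

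Among the anti-apoptotic members, MCL1 was the most abundant with each length tried. MCL1 (ENSG00000143384.13, chr1:150560895-150579738), which encodes a short-lived protein, had a base mean of 7913 in the knockdown experiment and 5218 in the LSD1 inhibition experiment. Per kilobase these are 1272 and 839, or 65.5% and 59.1% of the summed level of the 4 anti-apoptotic genes. The level of MCL1 thus exceeded those of 92.2% and 87.4% of protein-coding genes. Its lead depended on the length: over the coding sequence, MCL1 stood at 4969 per kilobase in the LSD1 inhibition experiment, against 3042 for BCL2.

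BCL2L1 (ENSG00000171552.13, chr20:31664452-31723989), which encodes BCL-XL, followed at a base mean of 1675 in the knockdown experiment and 1366 in the LSD1 inhibition experiment. Its level per kilobase was 399 and 326, and it held 20.6% and 22.9% of the anti-apoptotic sum. By splicing, this gene also yields the pro-apoptotic form BCL-XS, and a base mean per gene does not separate the forms.

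BCL2 (ENSG00000171791.13, chr18:63123346-63320128), the founding member and the target of venetoclax, had a base mean of 2108 in the knockdown experiment and 2446 in the LSD1 inhibition experiment. Its merged exons span 12612 bases. Its level per kilobase was 167 and 194, and 306 and 355 over the MANE Select transcript. Over the coding sequence alone, BCL2 exceeded BCL2L1 in both experiments, at 2622 against 1818 and at 3042 against 1484 per kilobase.

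BCL2A1 (ENSG00000140379.8, chr15:79960892-79971196), a target of NF-kappaB, was the lowest of the 10 in both experiments and with each length tried. Its base mean was 102 in the knockdown experiment and 60.4 in the LSD1 inhibition experiment, or 103 and 60.7 per kilobase. This placed it above 53.9% and 48.0% of protein-coding genes, near the middle of the distribution.

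Over merged exons, both effectors were among the 4 highest members in each experiment. BAX (ENSG00000087088.20, chr19:48954815-48961798), which resides in the cytosol until activated, had a base mean of 3311 in the knockdown experiment and 4058 in the LSD1 inhibition experiment. Its level per kilobase was 1280 and 1569, the highest of the family in each. In the knockdown experiment the level of BAX was 1.01 times that of MCL1, and in the LSD1 inhibition experiment 1.87 times. The merged exons of BAX are 3.25 times as long as its MANE Select transcript, so that its level depends on the length chosen. Over that transcript, BAX exceeded MCL1, at 4165 against 2003 per kilobase in the knockdown experiment and 5105 against 1321 in the LSD1 inhibition experiment. Over the coding sequence, MCL1 stood above BAX in the knockdown experiment, at 7536 against 5063 per kilobase.

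BAK1 (ENSG00000030110.13, chr6:33572547-33580293), which is anchored in the mitochondrial membrane, had a base mean of 1266 in the knockdown experiment and 1107 in the LSD1 inhibition experiment. Its level was 572 and 500.4 per kilobase, and BAX therefore held 69.1% and 75.8% of the effector sum. The place of BAK1 in the family was 4 in both experiments over merged exons. Over the coding sequence it was 6 in the knockdown and 5 in the LSD1 inhibition experiment, and without division by length 7 and 6.

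Of the BH3-only genes, BID was the highest in both experiments. BID (ENSG00000015475.18, chr22:17734138-17774770), which caspase-8 cleaves to link death receptors to mitochondria, had a base mean of 3206 in the knockdown experiment and 3220 in the LSD1 inhibition experiment. Its level per kilobase of 725 and 728 amounted to 48.6% and 60.1% of the BH3-only sum, and it was the steadiest member between the experiments.

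PMAIP1 (ENSG00000141682.11, chr18:59899996-59904305) encodes NOXA, a partner of MCL1 that p53 and the integrated stress response induce. It had a base mean of 944 in the knockdown experiment and 411 in the LSD1 inhibition experiment, or 432 and 188 per kilobase. It was the member with the largest gap between the experiments, at place 5 of the family in the former and place 7 in the latter.

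BCL2L11 (ENSG00000153094.23, chr2:111119378-111168444) encodes BIM, which binds all anti-apoptotic members. Its base mean was 1438 in the knockdown experiment and 967 in the LSD1 inhibition experiment, or 213 and 143 per kilobase. BBC3 (ENSG00000105327.17, chr19:47220822-47232766), a p53 target that encodes PUMA, had a base mean of 392 and 483, or 123 and 152 per kilobase. Over merged exons, BCL2L11 stood above BBC3 in the knockdown experiment and slightly below it in the LSD1 inhibition experiment, and so it did over the MANE Select transcript, at 190 against 262 in the latter. Over the coding sequence, however, BCL2L11 stood above BBC3 in the LSD1 inhibition experiment too, at 1104 against 617 per kilobase, as it did by base mean.

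Summed by role, the anti-apoptotic genes held 36.7% of the family's level per kilobase in the knockdown experiment, the effectors 35.0% and the BH3-only genes 28.3%. In the LSD1 inhibition experiment these shares were 30.2%, 44.03% and 25.8%. Without division by length, so that longer transcripts weigh more, the anti-apoptotic genes held 52.8% and 47.0% of the summed base means. In order of level per kilobase, 5 members kept their place between the experiments, namely BAX, MCL1, BID, BAK1 and BCL2A1, and no member moved by more than 2 places. Since the base means have no spread, none of the steps in this order could be tested. The smallest steps were between BAX and MCL1 (1.01 times) in the knockdown experiment and between BCL2 and PMAIP1 (1.03 times) in the LSD1 inhibition experiment.

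**Figure D2:**
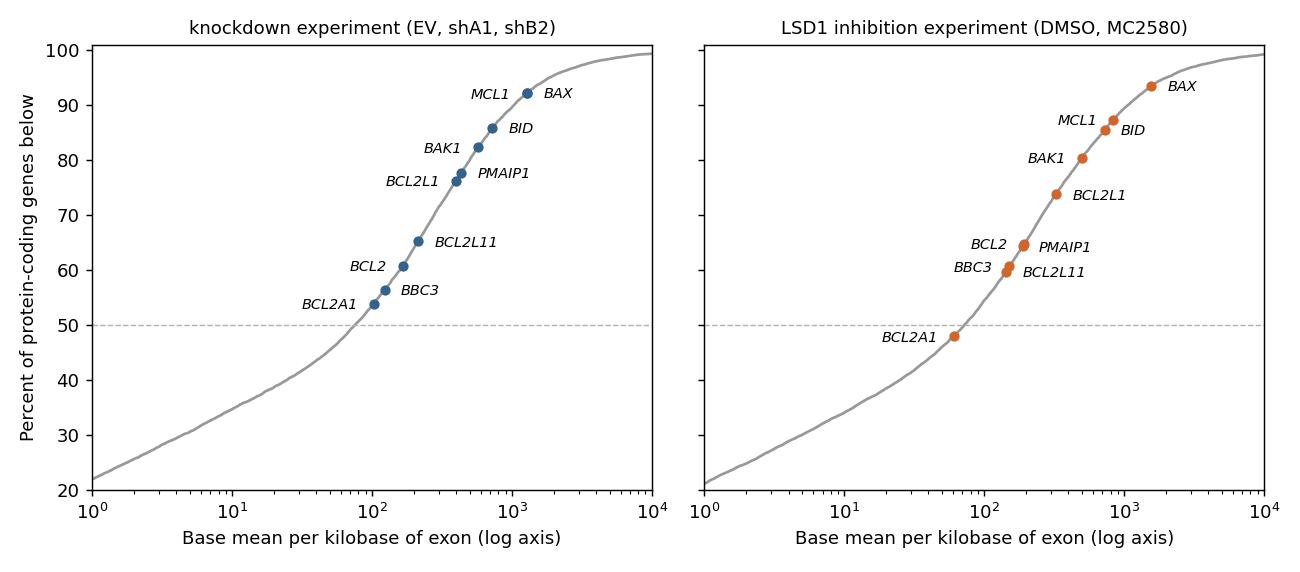
Share of protein-coding genes that lie below a given base mean per kilobase of exon (log axis), in each experiment, with the members marked on the curve; points are the authors' means over all libraries, divided by exon length. Members range from 53.9% (BCL2A1) to 92.3% (BAX) in the knockdown experiment and from 48.0% to 93.5% in the LSD1 inhibition experiment.

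The experiments were normalised in separate tables and differ in transduction, plating density and time as well as in treatment, so that a difference in level between them cannot be told apart from these and was not tested. With each base mean expressed as a share of the summed base means of its experiment, 7 of the 10 members had a lower value in the LSD1 inhibition experiment, and so had 58.6% of the 10916 protein-coding genes whose base mean reached 50 in each. The difference in PMAIP1 was -1.22 on the log2 scale, below all but 1.79% of these genes, and was a ratio of 2.33 in favour of the knockdown experiment. BCL2A1 followed at -0.78, MCL1 at -0.62 and BCL2L11 at -0.60. The lowest 5% of the protein-coding genes lay below -0.89, a limit that PMAIP1 alone of the members passed.

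BCL2L1 and BAK1 differed less, by -0.32 and -0.22, and BID by -0.02. BBC3, BAX and BCL2 were the 3 members with a higher value in the LSD1 inhibition experiment, by 0.28, 0.27 and 0.19 on the log2 scale. The middle 50% of the protein-coding genes spanned -0.39 to 0.19 and contained 4 of the members, BCL2 among them. The median protein-coding gene stood at -0.09 on this scale, and the median member at -0.27. When the tables were instead scaled to the median gene, all differences moved up by 0.09, which turned that of BID to 0.07.

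**Figure D3:**
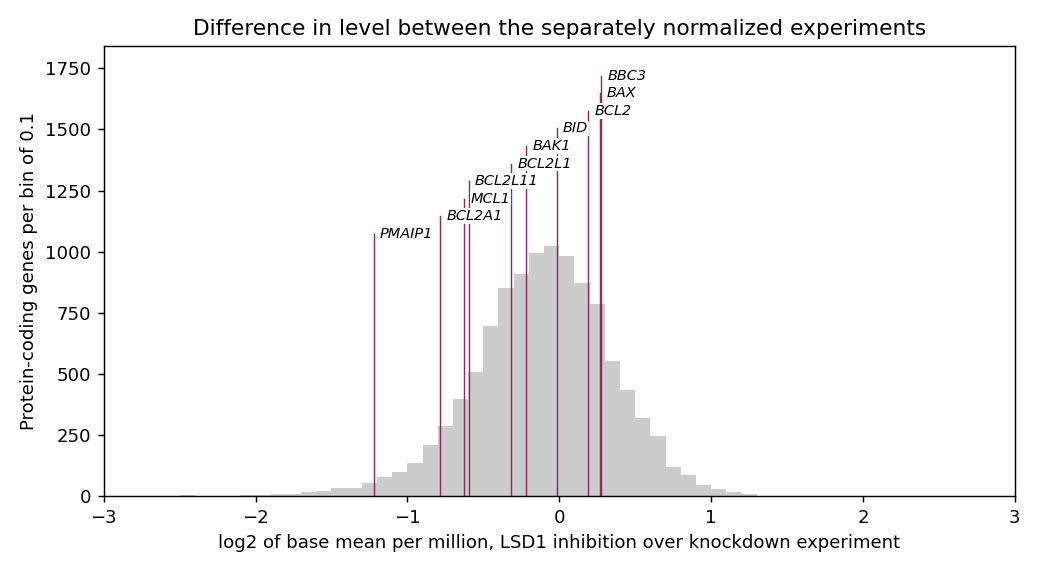
Histogram of the log2 difference between the experiments (LSD1 inhibition over knockdown) in base mean, scaled to the sum of each experiment, for the 10916 protein-coding genes whose base mean reached 50 in each, drawn from -3 to 3, with a line for each member whose height only separates the names. PMAIP1 at -1.22 lies in the lower tail, and BBC3 at 0.28 is the rightmost member.

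Reads of some members can be shared with other genes. TruSeq v2 libraries do not keep the strand, and BCL2L11 shares 727 exonic bases with MIR4435-2HG, a long noncoding RNA on the opposite strand that had a base mean of 545 in the knockdown experiment and 348 in the LSD1 inhibition experiment. The part of this RNA in the value of BCL2L11, which was likewise lower in the LSD1 inhibition experiment, was not tested. BCL2L1 shares 1735 exonic bases with the antisense RNA ABALON, which had a base mean of 59.9 and 59.6. For MCL1, the overlapping gene with the higher base mean was ADAMTSL4, at 181 and 127 over 43 shared bases. The longer overlap, of 328 bases, was with ADAMTSL4-AS1 on the same strand as MCL1, which had a base mean of 8.27 and 5.49. The pseudogene BAK1P1 had a base mean of 2.93 and 7.45, far below that of BAK1.

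The rest of the pathway was read from lists chosen for the purpose. Of 13 other genes related to BCL2, 9 exceeded the median protein-coding gene per kilobase in both experiments. BCL2L12 was the highest of them, at 1123 per kilobase in the knockdown experiment and 1142 in the LSD1 inhibition experiment, whereas BCL2L14 was listed at 0 in both. HRK, a BH3-only gene of neurons, had a base mean of 0.744 and 0.0994, and BOK, a relative of the effectors, 5.76 and 10.2. The anti-apoptotic BCL2L2 and BCL2L10 lay at 135 and 246 per kilobase in the knockdown experiment, between BBC3 and BCL2L1, and the BH3-only genes BAD, BIK and BMF at 506, 517 and 310.

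Downstream of the mitochondria, 12 of 13 genes of the apoptosome and caspases exceeded the median gene in both experiments. CYCS, which encodes the cytochrome c released through the BAX and BAK1 pores, was the highest, at 1468 per kilobase in the knockdown experiment and 1894 in the LSD1 inhibition experiment. BIRC3, an inhibitor of apoptosis, was the lowest, at 11.6 and 6.69. In the death receptor path upstream of BID, 7 of 8 genes exceeded the median in the knockdown experiment and 6 in the LSD1 inhibition experiment, from TNFRSF1A at 1360 and 1680 per kilobase down to FAS at 12.1 and 7.39. The base means of FAS were 354 and 217, against 413 and 399 for the median protein-coding gene. How far FAS lay below the median per kilobase thus depended on the division by length. Of 8 genes that handle BCL2 family proteins, such as channels that hold BAX and BAK1 and ligases that mark MCL1 for degradation, the highest was VDAC1 at 3480 and 3538 and the lowest FBXW7 at 97.6 and 69.5.

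**Figure D4:**
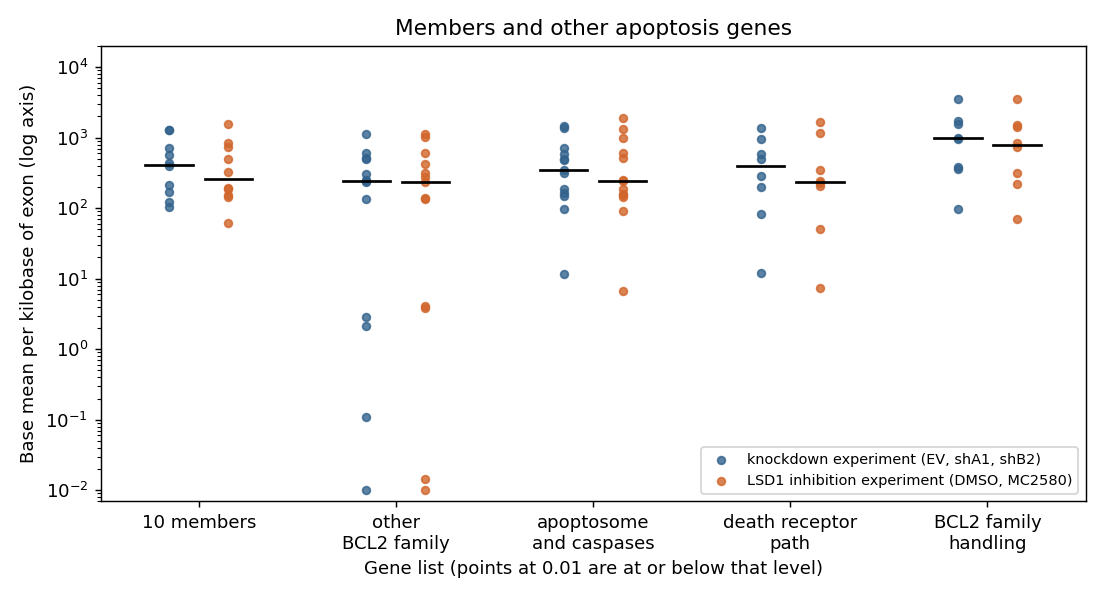
Base mean per kilobase of exon (log axis) of the 10 members and of 4 lists of related genes in each experiment; each point is a gene, as the authors' mean over all libraries divided by exon length, and the black bars are medians over the genes. The members span 103 to 1280 in the knockdown experiment, while the other BCL2 family genes reach from 0 (BCL2L14, drawn at 0.01) to 1123.

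The label of the cells was checked against markers of promyelocytes and of other cell types. MPO, the myeloperoxidase of promyelocyte granules, had a base mean of 506765 in the knockdown experiment and 824818 in the LSD1 inhibition experiment. Of the 7 promyelocyte markers, 5 exceeded the median protein-coding gene per kilobase in each experiment. KIT lay below it, at 5.86 and 1.55 per kilobase, and so did ELANE, with base means near 0, at 1.10 and 3.87. Of the 3 markers each of T cells, B cells and erythroid cells and the 2 each of fibroblasts and epithelial cells, CD3D, EPCAM and CD79A exceeded the median gene per kilobase in both experiments, whereas the base means of CD3E and MS4A1 were below 3 in each and HBA1 was listed at 0.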

How the data were processed

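mRNA-seq libraries of 10 NB4 samples were prepared by the authors with TruSeq v2. Per the labels, reads were mapped to hg38 with STAR 2.7, and genes were quantified with RSEM and modelled in DESeq2; the annotation release is not given in the sources used here. The deposited signal is the base mean computed by the authors, which pools all libraries of an experiment. The knockdown table holds them in 2 columns that differed in 0 rows. The other deposited columns, the authors' own log2 fold changes with standard errors, Wald statistics and p-values for shA1, shB2 and MC2580, were not used or printed. The edgeR test planned for counts per library was not run, because the tables hold 0 columns of values per library, and no test was made. Intervals and depths per library are likewise not given.

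Base means were divided by merged exon lengths of GENCODE release 44 on GRCh38, to which 60306 of 60603 identifiers matched, or by the sum over all genes of an experiment. Lists were matched by symbol, and MARCHF5 by identifier. Percentiles refer to 17298 and 17050 protein-coding genes with reads and a length. pandas 2.3.3 and numpy 2.4.6 were used, and the functions were tested on simulated data. Groups were taken from the sample titles, where MC280 was read as MC2580. Members and lists were chosen with earlier results of these data known. Named from the lists were the highest and lowest gene of each per kilobase and those with a base mean below 10, and the other genes named were chosen after their values were seen. Some genes of the lists are not reported here. Alternatives were other gene lengths, minimum base means of 10 and 50, and 3 other scalings between the tables.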

Additional observations from a re-analysis of the deposited data

How the results depend on the processing

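The number of members above the median protein-coding gene was 10 in the knockdown and 9 in the LSD1 inhibition experiment. With only genes of a base mean of at least 50 as the reference it was 6 and 5, because fewer low genes enter the median. Over the other lengths and with a minimum of 10, it ranged from 7 to 10. The anti-apoptotic share of the family in the LSD1 inhibition experiment was 30.2%, and 47.0% without division by length, and was between 22.7% and 38.8% with the other lengths. Over the MANE Select transcript, a length chosen after seeing the data, 12 of the 20 member levels moved by over 1.5 times, against 8 over the longest transcript and all 20 over the coding length. BCL2A1 kept the last place with every length, and BAX the first or second. Each of the 3 other scalings moved the differences between the experiments by a single constant for all genes, so that they do not measure the stability of single members, and BID changed sign under the median ratio. No paired analysis was possible because the result comes from no test and the columns pool all replicates; for the same reason, leaving out replicates, the edgeR and DESeq2 fits and the fit without a low count filter were not run.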

Other observations

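Among the 4 lists of other apoptosis genes, 38 genes reached a base mean of 50 in each experiment, and 25 of them had a lower base mean, as a share of the experiment's sum, in the LSD1 inhibition experiment than in the knockdown experiment (65.8%, against 58.6% of all protein-coding genes with such base means). The following genes were chosen after their values were seen, for lying below the lowest 5% of protein-coding genes, and none of the differences was tested. BMF, a BH3-only gene, differed by -1.21 on the log2 scale, close to the -1.22 of PMAIP1. CASP8, the initiator caspase that cleaves BID, differed by -1.06, and APAF1, the scaffold of the apoptosome, by -0.99. In the opposite direction, BNIP3, a mitophagy receptor of the outer mitochondrial membrane, had the highest value of the 38 genes, at 0.72. These values set side by side 2 separately normalized tables, each a mean over treated and control libraries.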
